A study of Mus musculus with 5 samples.

Results

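A set of 7 genes that fell steeply when Prox1 was overexpressed in Akt/Notch liver tumours was examined, out of 17105 genes tested and 55397 genes listed. They were Gabrp, Upk3a, Kctd14, Nts, Stk32b, Atp6v1b1 and 2900052N01Rik, and all 7 passed the filter on low values, a mean normalised count of at least 10. They were picked by name from the same contrast, for falling far while belonging to none of the cell type marker lists used here. Their falls are therefore given as a description, without a test. All 5 tumours came from female C57BL/6N mice that received Sleeping Beauty transposase, AKT and the NOTCH intracellular domain (NICD) by hydrodynamic tail vein injection at 8 weeks of age. This delivery pushes plasmid solution into the liver, where hepatocytes take it up, and the AKT and NICD transposons give tumours that resemble cholangiocarcinoma, a bile duct cancer. The NICD plasmid also carried rtTA, the doxycycline-dependent activator, so both groups had the switch and both were kept on doxycycline diet (6.25%) from day 21. In the 3 Prox1 OE libraries a Tre promoter drove FLAG-tagged mouse Prox1 with GFP from week 3 to week 4. In the 2 Control libraries the same promoter drove GFP alone. The plasmids reach a part of the hepatocytes only, and dissected tumours also hold other cells. Tumours were taken once overexpression had run for a week or when a humane endpoint was reached, and which held for each is not given. Hepatocyte and bile duct marker genes were detected in every library.

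PROX1 is a homeobox transcription factor of hepatocytes, and NOTCH signalling drives hepatocyte precursors towards the bile duct fate. The genes examined belong to unrelated families. GABRP is the pi subunit of GABA-A receptors, chloride channels opened by the transmitter GABA. UPK3A is a uroplakin, a membrane protein of the urothelial plaque that lines the bladder. NTS is the precursor of neurotensin, a secreted peptide of gut endocrine cells and neurons. ATP6V1B1 is the tissue-restricted B1 subunit of the V-ATPase, the proton pump that acidifies compartments in every cell and, in kidney intercalated cells, the urine. STK32B is a serine/threonine kinase, KCTD14 is a member of the BTB-domain KCTD family, and 2900052N01Rik is annotated as a long intergenic noncoding RNA.

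The stretch around the transcription start is shown for 3 of these genes, Gabrp as the most abundant and Atp6v1b1 and 2900052N01Rik as the pair with the deepest falls. Sequences are from RefSeq on GRCm38.p6, 5′ to 3′ along the transcribed strand, from 250 bases before to 50 bases after the RefSeq start. Capitals mark letters of the 4 motifs searched.
Gabrp, chr11:33578908-33579207, minus strand: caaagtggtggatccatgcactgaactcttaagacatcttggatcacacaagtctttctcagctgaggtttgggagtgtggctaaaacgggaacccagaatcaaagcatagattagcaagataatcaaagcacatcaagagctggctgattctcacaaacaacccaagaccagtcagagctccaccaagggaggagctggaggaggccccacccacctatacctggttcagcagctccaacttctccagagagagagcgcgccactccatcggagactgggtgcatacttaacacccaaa
Atp6v1b1, chr6:83742767-83743066, plus strand: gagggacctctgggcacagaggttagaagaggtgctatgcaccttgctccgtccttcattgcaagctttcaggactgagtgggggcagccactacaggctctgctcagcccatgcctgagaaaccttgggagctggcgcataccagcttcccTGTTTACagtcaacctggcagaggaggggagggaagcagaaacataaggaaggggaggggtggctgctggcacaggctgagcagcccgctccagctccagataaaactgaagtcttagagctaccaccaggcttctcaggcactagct
2900052N01Rik, chr9:46913353-46913652, plus strand: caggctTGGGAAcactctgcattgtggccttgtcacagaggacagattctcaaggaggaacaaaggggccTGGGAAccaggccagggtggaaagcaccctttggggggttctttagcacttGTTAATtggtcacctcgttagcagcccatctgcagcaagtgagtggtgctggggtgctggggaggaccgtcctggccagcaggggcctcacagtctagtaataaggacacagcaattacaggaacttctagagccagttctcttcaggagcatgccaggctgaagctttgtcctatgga

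Promoter sequence was at hand for 6 of the 7 genes. The following 4 short words were looked for on both strands. They were AAGACG, part of motifs given for PROX1; TGGGAA, the core bound by the NOTCH partner RBPJ; TGTTTAC, a forkhead word; and GTTAAT, from the HNF1 site. AAGACG stood in 0 of the 6 windows, against 5.4% of 32851 promoters of the same length. At that share 0 is the likeliest count for 6 windows, so nothing is read from it. TGGGAA was found in 1 of 6, that of 2900052N01Rik, and in 25.6% of all. TGTTTAC was found in 1 of 6, that of Atp6v1b1, starting at position -98 from the start, and in 3.65% of all. GTTAAT was found in 1 of 6, again 2900052N01Rik, at position -129, and in 7.1% of all. CpG dinucleotides were sparse, with an observed to expected ratio under 0.5, in 5 of the 6 windows and in 58.1% of all promoters. Stk32b had the one window above that value (0.57), and 2900052N01Rik had the lowest (0.0912). These matches describe letters in a window and were not tested as binding sites. The study mapped PROX1 binding in mouse liver by CUT&RUN, and those data were not used here.

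Libraries held 48740863 to 56629477 reads, and 1 read was worth 0.822 to 1.18 normalised counts, the unit used throughout. Prox1 itself stood at 4153 and 4664 normalised counts in Control 1 and 2, and at 48090, 11113 and 8231 in Prox1 OE 1, 2 and 3. Every Prox1 OE library was above both Controls, although the wide spread left the log2 fold change of 1.90 ± 0.66 (SE) outside the threshold of limma (adjusted p = 0.061, and 0.0019 to 0.21 over the alternatives). Of all genes tested, 2769 were called lower in Prox1 OE (16.2%) and 2933 higher (17.1%). Here a gene was called where its Benjamini-Hochberg adjusted p from limma was under 0.05. When libraries were scaled by total count in place of the deposited size factors, the all-gene median moved from -0.02 to -0.45 on the log2 scale. The share of calls that were higher then went from 51.4% to 17.7%.

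All 7 genes lay lower in each Prox1 OE library than in either Control library. The same held for 32.4% of all genes tested, and since the genes were picked from this contrast nothing is read from their count. Their median log2 fold change was -4.03, and their range was -2.92 for Gabrp to -6.95 for 2900052N01Rik. At the shallow end, 110 of 17105 genes (0.643%) fell at least as far as Gabrp. The falls were spread over 7 chromosomes.

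**Figure D1:**
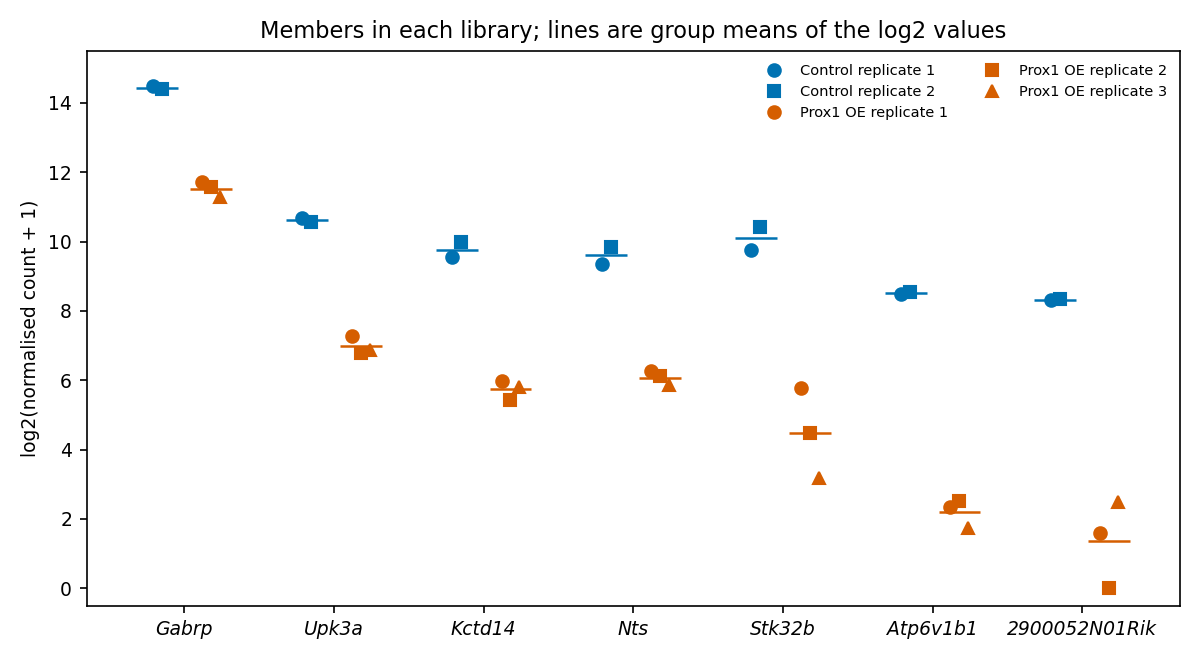
The 7 genes in each library, on the vertical axis as log2(normalised count + 1), with Control in blue, Prox1 OE in orange and lines at group means of the log2 values. Every Prox1 OE point sits below both Control points of its gene, by the least for Gabrp (log2 fold change -2.92) and by the most for 2900052N01Rik (-6.95), and the points of Stk32b are widely spaced within Prox1 OE.

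Gabrp (chr11:33550781-33578959, minus strand) was the most abundant of them. It stood at 22683 and 21679 normalised counts in Control and at 3342, 3029 and 2501 in Prox1 OE. The libraries within each group lay close together and the groups were far apart, with the lowest Control 6.49 times the highest Prox1 OE value. Control averaged 22181 ± 710 (SD, n = 2) and Prox1 OE averaged 2957 ± 425 (SD, n = 3), which leaves 13.3% of the Control level. Among the 752 genes tested whose mean level was at or above that of Gabrp, 2 fell at least as far, Gabrp included. Per kilobase of exon, its Control level of 6568 normalised counts ranked 310 among genes tested and exceeded that of the bile duct keratin Krt19 (5184). In Prox1 OE it ranked 2944, with 876 per kilobase beside 970 for Krt19.

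Upk3a (chr15:85017141-85022547, plus strand) stood at 1647 and 1521 normalised counts in Control, and at 154, 110 and 117 in Prox1 OE. The Prox1 OE libraries kept 8.02% of the Control mean, a log2 fold change of -3.65. Its level per kilobase in Control, 1449, was second to Gabrp among the 7 genes.

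Kctd14 (chr7:97451323-97459557, plus strand) stood at 753 and 1007 in Control, and at 62.4, 42.5 and 54.4 in Prox1 OE. Nts (chr10:102481756-102490486, minus strand) stood at 654 and 921 in Control, and at 75.7, 68.4 and 56.7 in Prox1 OE. In both genes Control 2 was the higher Control library. Kctd14 kept 6.03% of the Control mean (log2 fold change -4.03) and Nts kept 8.50% (log2 fold change -3.53). The lowest Control value was 12.1 times the highest Prox1 OE value for Kctd14 and 8.64 times for Nts.

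Stk32b (chr5:37446825-37717171, minus strand) had the widest spread on the log2(normalised count + 1) scale, narrowly above 2900052N01Rik, which was at 0 in a library. It stood at 866 and 1377 in Control, and at 54.2, 21.2 and 8.10 in Prox1 OE. The highest Prox1 OE library thus had 6.69 times the lowest, yet lay far under both Controls. Its log2 fold change was -5.61, and it ranged from -6.26 to -4.96 as each library was left out.

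Atp6v1b1 (chr6:83742990-83758855, plus strand) was nearly lost. It stood at 357 and 369 normalised counts in Control, and at 4.09, 4.72 and 2.32 in Prox1 OE. The Prox1 OE values were 10 reads in all, and the ratio of Control to Prox1 OE was 97.5 with a 95% counting interval of 52.8 to 204. Intervals of this kind cover counting error only.

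2900052N01Rik (chr9:46913493-46927366, plus strand) was listed at 315 and 320 normalised counts in Control, and at 2.05, 0 and 4.63 in Prox1 OE. These were 6 reads in all over the 3 Prox1 OE libraries. The ratio of Control to Prox1 OE was 142, with a 95% counting interval of 65.1 to 389. With so few reads the fitted log2 fold change moved with the pseudocount and scaling, from -8.30 to -4.76 for 2900052N01Rik and from -6.69 to -4.77 for Atp6v1b1. No annotated gene overlaps any of the 7 genes on either strand.

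**Figure D2:**
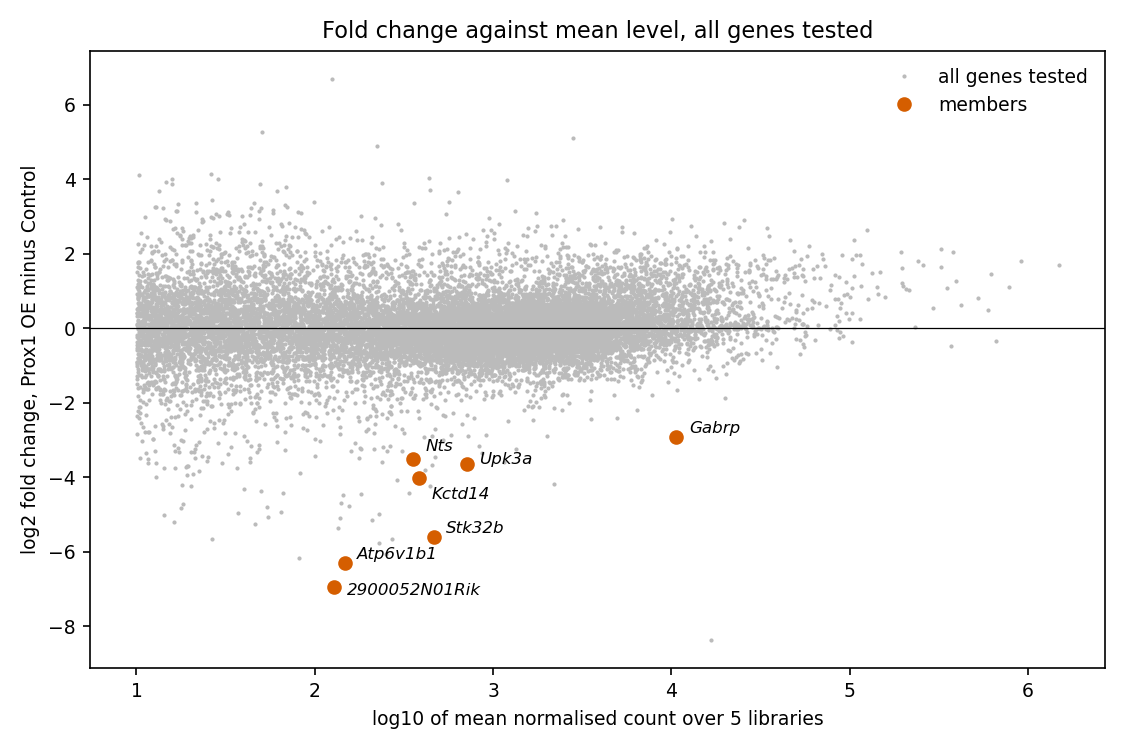
Log2 fold change of Prox1 OE over Control on the vertical axis against the log10 of the mean normalised count over 5 libraries, for the 17105 genes tested in grey and the 7 genes in orange. 2900052N01Rik and Atp6v1b1 lie at -6.95 and -6.31 at low mean level, and Gabrp lies apart at high mean level with a log2 fold change of -2.92.

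The spread was not uniformly tight. The residual SD on the log2 scale, which measures how far libraries lay from their group mean, had a median of 0.20 over all genes tested. It was above that in 6 of the 7 genes, all but Gabrp (0.18). Upk3a (0.22), Nts (0.26), Kctd14 (0.28) and Atp6v1b1 (0.34) were moderately above it, while 2900052N01Rik (1.03) and Stk32b (1.10) were loosely grouped. For those 2 genes the fall was steep but the replicates were not close on the log scale.

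Prox1 OE 1, the library with the most Prox1, was not the one with the least of these genes. Of the 7 genes, 5 were highest in Prox1 OE 1 among the Prox1 OE libraries, namely Gabrp, Upk3a, Kctd14, Nts and Stk32b. Atp6v1b1 was highest in Prox1 OE 2 and 2900052N01Rik in Prox1 OE 3, both on few reads. The duct markers Krt7 and Sox9 were also highest in Prox1 OE 1, while Krt19 and Epcam were highest in Prox1 OE 2. The share over all genes was not counted, and with 3 libraries this order was not tested.

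Tumours of the 2 groups also differed in their bile duct and hepatocyte genes. Of 16 cholangiocyte markers, all tested, 10 fell and 1 rose, with a median log2 fold change of -1.11 against -0.02 for all genes. With the total count as scaling 13 fell. The gene that rose, Aqp1, lost its call with that scaling, without Control 1 (adjusted p = 0.14) and without Prox1 OE 2 (0.053). Their summed level was 819497 to 891936 normalised counts in Control and 555250 to 747986 in Prox1 OE, and none was at 0. Spp1 made up most of that sum, with 784749 and 712010 in Control and 509317 to 688825 in Prox1 OE, and was not called (log2 fold change -0.34 ± 0.37, adjusted p = 0.51). Krt19, a duct keratin, stood at 8442 and 10790 in Control and at 1643, 1968 and 1785 in Prox1 OE (log2 fold change -2.41 ± 0.15, limma adjusted p = 0.0014). Of 12 hepatocyte markers 9 rose and the other 3 were not called, with a median log2 fold change of 1.70, and their summed level went from 1223500 to 1806087 in Control to 3611084 to 5192494 in Prox1 OE. Alb, a large part of that sum, stood at 480678 and 798691 in Control and at 1978956, 1559106 and 2594529 in Prox1 OE (1.69 ± 0.52, limma adjusted p = 0.043). The call of Alb was lost in 7 of the 16 alternatives, among them each left-out library (0.051 to 0.42), and that of Tat without Control 1 (0.079) and without Prox1 OE 2 (0.055). Hnf4a, the hepatocyte regulator, changed by 1.15 ± 0.16 (adjusted p = 0.0033). Of 12 pancreatic acinar markers 5 were tested, with 1 lower and 2 higher, and of 12 gastric and intestinal markers 6 were tested, with 3 lower and 2 higher. Most of these calls were lost in at least 1 alternative. Of the 16 alternatives, the acinar genes Ctrb1 (lower) and Prss2 (higher) lost theirs in 1 and 6, the gastric and intestinal genes Vil1, Cdh17 and Olfm4 (lower) in 3, 3 and 5 and Tff3 (higher) in 3. Cela1 and Fabp2, both higher, kept theirs in all 16. In bulk tumours, fewer cells of a type and less RNA per cell cannot be told apart.

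Set against the mean of 4 duct markers of the same library, each of the 7 went down further. The mean log2 level of Krt19, Krt7, Epcam and Sox9 changed by -1.80. Relative to that mean, the log2 fold changes were -1.12 for Gabrp, -1.73 for Nts, -1.85 for Upk3a and -2.23 for Kctd14. They were -3.81 for Stk32b, -4.51 for Atp6v1b1 and -5.15 for 2900052N01Rik. The median relative change was -2.23. Of the single cholangiocyte markers 1 fell further than Gabrp. Cldn4 changed by -2.98 ± 0.61 on the log2 scale (limma adjusted p = 0.011, and 0.074 without Control 2), beside -2.92 for Gabrp. Krt7, the next, was at -2.50 ± 0.28 (adjusted p = 0.0024). These are descriptions on the log2 scale, since the same contrast chose the genes.

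To see whether relatives of these genes moved too, 97 genes in 8 lists of paralogs, partner subunits, receptors and processing enzymes were followed. Of the 60 that could be tested, 12 fell (20%, beside 16.2% of all genes) and 13 rose (21.7%, beside 17.1%), and the median log2 fold change was 0.01. Without Control 1 the calls dropped to 3 lower and 5 higher, and without Control 2 to 5 lower and 9 higher. With the total count as scaling, 27 were lower and 6 higher. The shares lay near those of all genes, and the lists differed from each other in direction.

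**Figure D3:**
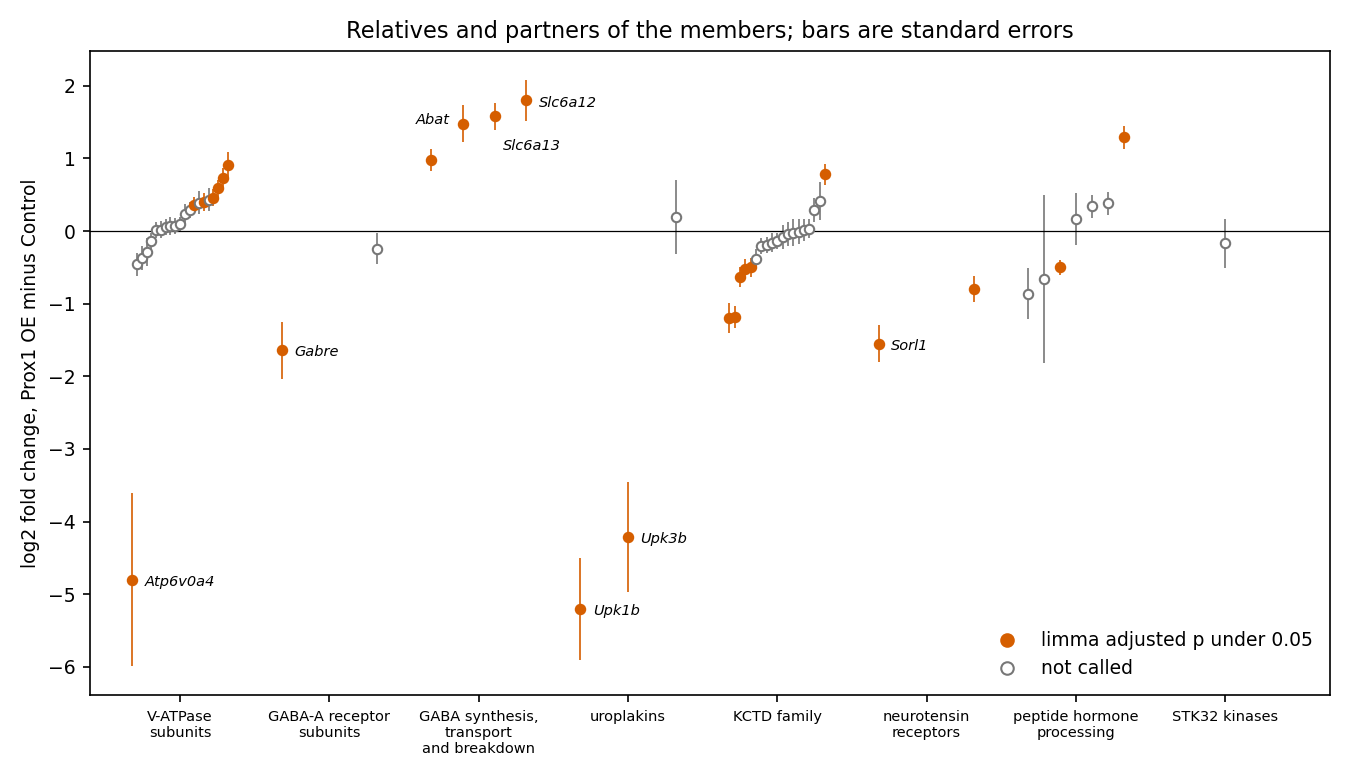
Log2 fold change of Prox1 OE over Control for relatives and partners tested, by list, with standard errors as bars, filled orange where the limma adjusted p was under 0.05 and open grey otherwise. Atp6v0a4 (-4.80), Upk3b (-4.21) and Upk1b (-5.20) lie far below the rest, and the GABA handling genes lie between 0.98 and 1.80.

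The V-ATPase list held 24 further subunits and accessory proteins, of which 21 were tested. A single one fell. It was Atp6v0a4, the a4 subunit, known like B1 from kidney intercalated cells, where loss of either causes renal tubular acidosis. Atp6v0a4 stood at 121 and 121 normalised counts in Control, and at 24.5, 0 and 2.32 in Prox1 OE (log2 fold change -4.80 ± 1.19, limma adjusted p = 0.02). Control libraries lay together and the Prox1 OE libraries were scattered below them. The call was lost without Control 1 (adjusted p = 0.096), without Control 2 (0.082) and without Prox1 OE 3 (0.052), and also with DESeq2, with limma without trend and with a pseudocount of 0.1. Over all alternatives its adjusted p ranged from 0.0037 to 0.11.

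The ubiquitous B subunit Atp6v1b2, the paralog of Atp6v1b1, stood at 4419 and 4623 normalised counts in Control and at 5269, 4293 and 4681 in Prox1 OE. These values overlapped, and the log2 fold change was 0.07 ± 0.12 (limma adjusted p = 0.71). Per kilobase of exon, Atp6v1b1 amounted to 9.77% and 9.66% of Atp6v1b2 in Control, and to 0.094%, 0.133% and 0.0599% in Prox1 OE. The minor B isoform was thus a small fraction of the B subunit RNA before it fell. For the a subunits, Atp6v0a4 amounted per kilobase to 7.71% and 6.95% of Atp6v0a1 in Control, and to 0.788%, 0% and 0.0849% in Prox1 OE.

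Another 6 subunits were called higher, by less than 1 on the log2 scale, with Atp6v0d2 (0.91 ± 0.18, limma adjusted p = 0.01), Atp6v0a1 (0.73 ± 0.14, 0.008) and Atp6v0d1 (0.59 ± 0.12, 0.012) in front. Their calls depended on scaling. With the total count 9 of the 21 genes tested were called lower and the other 12 were not called, while the lowest log2 fold change over all alternatives was 0.48 for Atp6v0d2, 0.30 for Atp6v0a1 and 0.16 for Atp6v0d1. Without Control 1 the adjusted p of the 3 named subunits was 0.11, 0.089 and 0.12, and without Control 2 that of Atp6v0d1 was 0.067. The summed level of the 24 genes was 81684 to 81882 normalised counts in Control and 93246 to 97660 in Prox1 OE.

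Markers of acid-secreting intercalated cells and ionocytes did not move as a block. Of 14 markers, 9 were tested, 1 fell (Car2) and 2 rose (Insrr and Rhbg), with a median log2 fold change of 0.16, which was -0.27 with the total count as scaling. The Car2 call (log2 fold change -0.54 ± 0.12, limma adjusted p = 0.013) was lost without Control 1 (0.14) and without Control 2 (0.073). Their summed level was 5232 to 5745 normalised counts in Control and 4023 to 4361 in Prox1 OE, of which Car2 alone made up 5378 and 4984 in Control and 3301 to 3877 in Prox1 OE. The defining factor Foxi1, a forkhead protein, stood at 117 in Control 1 and at 0 in Control 2 and in all 3 Prox1 OE libraries. Aqp6 and Oxgr1 were at 0 in every library. The part of such cells in the fall of Atp6v1b1 was not tested.

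GABA-A receptors are pentamers, in which the pi subunit joins subunits of other classes. Of the 18 other subunit genes in the list, 5 had no read in any library and most others were too low to test. Gabra3 stood at 246 and 213 normalised counts in Control and at 160, 197 and 228 in Prox1 OE. The groups overlapped and the log2 fold change was -0.24 ± 0.22 (limma adjusted p = 0.42). Gabre, the epsilon subunit, went from 40.3 and 35.6 to 9.20, 14.2 and 11.6 (log2 fold change -1.64 ± 0.39, limma adjusted p = 0.018).

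Gabre lost its call without Control 1 (adjusted p = 0.14) and without Control 2 (0.09). Levels per kilobase show how far Gabrp stood above these partners. Against 6568 normalised counts per kilobase for Gabrp in Control, Gabra3 had 58.4 and Gabre 8.01. In Prox1 OE Gabrp still had 876, against 49.7 for Gabra3 and 2.46 for Gabre.

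Genes that handle GABA moved opposite to its receptor subunit. Of 9 genes for synthesis, transport and breakdown, 4 were tested and all 4 rose, under every scaling tried. Slc6a13, a GABA transporter of the liver, stood at 3344 and 4237 normalised counts in Control and at 9572, 10789 and 13932 in Prox1 OE (log2 fold change 1.58 ± 0.19, limma adjusted p = 0.0026). Slc6a12, the betaine and GABA transporter, rose by 1.80 ± 0.28 (adjusted p = 0.0044), and Abat, the GABA transaminase, by 1.48 ± 0.25 (adjusted p = 0.0056). Aldh5a1, which completes GABA breakdown, changed by 0.98 ± 0.15 (adjusted p = 0.0038). The hepatocyte markers above rose beside them, with a median of 1.70, and their part in this was not tested. The GABA-forming enzymes Gad1 and Gad2 were at or near 0, with 2.47 normalised counts as the highest value of Gad1 and 1.16 as that of Gad2.

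Among 5 other uroplakins, 3 were tested. Upk1b, which pairs with Upk3a in the urothelial plaque, stood at 60.0 and 21.2 normalised counts in Control and at 0 in all 3 Prox1 OE libraries. Against a floor of 3 reads per library, the fall from the Control mean was at least 12.1-fold. That bound is smaller for Control 2 alone. Upk3b, an Upk3a paralog of mesothelium, stood at 61.6 and 24.6 in Control and at 2.05, 0 and 2.32 in Prox1 OE. The ratio of Control to Prox1 OE for Upk3b was 29.2, with a 95% counting interval of 11.1 to 109. Both were called lower (limma adjusted p = 0.0031 and 0.0068), and in both Control 1 was the higher Control library. Upk1a stood at 10.7 and 8.48 in Control and at 13.3, 14.2 and 6.94 in Prox1 OE, with overlapping groups and a log2 fold change of 0.19 ± 0.51 (adjusted p = 0.8), which was -0.20 with the total count as scaling.

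Upk2, the usual partner of Upk1a, did not exceed 1.70 normalised counts in any library, and Upk3bl did not exceed 1.02. Urothelial markers gave no common direction, with 5 of 10 tested, 1 lower (Ivl) and 2 higher (Krt20 and Sprr1a). The call of Ivl (limma adjusted p = 0.032) was lost in 6 of the 16 alternatives, among them those without Control 2 (0.19) and without Prox1 OE 1, 2 or 3 (0.065, 0.088 and 0.067). The median log2 fold change of those 5 was -0.24. Their summed level was 2945 to 3059 normalised counts in Control and 4966 to 5782 in Prox1 OE, of which Sprr1a alone made up 2516 and 2388 in Control and 4274 to 4850 in Prox1 OE. Krt13 and Sprr2a1 were at 0 in every library, and the basal marker Krt5 did not exceed 6.57. The part of urothelial cells in the fall of Upk3a was not tested.

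Of 23 other KCTD genes 19 were tested, with 5 lower and 1 higher and a median log2 fold change of -0.13. Kctd11 fell from 899 and 1019 normalised counts in Control to 421, 458 and 392 in Prox1 OE (log2 fold change -1.18 ± 0.15, limma adjusted p = 0.0027). Kctd1 changed by -1.20 ± 0.21 (adjusted p = 0.0064), Kctd6 by -0.63 ± 0.14 (0.015) and Kctd2 by 0.78 ± 0.14 (0.0069). None approached the log2 fold change of -4.03 of Kctd14. Kctd1 and Kctd6 lost the call without Control 2 (0.068 and 0.12), and Kctd6 and Kctd2 without Control 1 (0.11 and 0.079). With the total count, 10 KCTD genes were lower and the other 9 were not called.

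Receptors for neurotensin were of the sorting type. The G protein-coupled receptor gene Ntsr1 was at 0 in every library, and Ntsr2 did not exceed 4.11 normalised counts. Sort1, which encodes sortilin, a neurotensin-binding sorting receptor, stood at 10031 and 9573 in Control and at 6888, 5777 and 4449 in Prox1 OE (log2 fold change -0.80 ± 0.18, limma adjusted p = 0.015). Sorl1, its relative, stood at 2070 and 2139 in Control and at 1048, 576 and 616 in Prox1 OE (-1.55 ± 0.25, limma adjusted p = 0.005). In both, every Prox1 OE library was below both Controls. The Sort1 call was lost without Control 1 (0.11), Control 2 (0.072) or Prox1 OE 2 (0.051) and with limma without trend, while that of Sorl1 was kept under each alternative.

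Of 12 genes for processing and storing peptide hormones, 7 were tested, with 1 lower and 1 higher. Pcsk6, a proprotein convertase, rose from 2468 and 2817 normalised counts to 7036, 5349 and 7155 (log2 fold change 1.29 ± 0.16, limma adjusted p = 0.0027). Pam, the peptide amidating enzyme, changed by -0.50 ± 0.10 (adjusted p = 0.011), a call lost without either Control library (0.11 each). Pcsk1, the convertase of endocrine cells, differed between the Controls, at 57.5 and 1.70, and had 8.18, 7.08 and 5.79 in Prox1 OE. The granule protein gene Chga did not exceed 1.02. Of 13 enteroendocrine markers 4 were tested and 0 called by limma (1 at an unadjusted p under 0.05, 1 by edgeR and 1 by DESeq2), with a median log2 fold change of -0.95 and a summed level of 332 to 333 in Control and 249 to 564 in Prox1 OE. Neurog3 and Sst were at 0 in every library.

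Stk32c, a paralog of Stk32b, stood at 34.5 and 37.3 normalised counts in Control and at 25.6, 40.1 and 31.3 in Prox1 OE, with overlapping groups (log2 fold change -0.17 ± 0.34, limma adjusted p = 0.73). Stk32a, the other paralog, did not pass the filter, with 1.64 and 0.848 in Control and 10.2, 1.18 and 4.63 in Prox1 OE. Per kilobase, Stk32b had 324 normalised counts in Control against 15.6 for Stk32c. In Prox1 OE its mean was 8.05 against 14.0, below its paralog. The order differed between libraries. In normalised counts Stk32b was above Stk32c in Prox1 OE 1 (54.2 against 25.6). It was below in Prox1 OE 2 (21.2 against 40.1) and 3 (8.10 against 31.3).

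The nearest tested gene on each side of each of the 7 was read from the fit over all genes. Of these 14 flanking genes 4 were lower and 2 higher, beside 16.2% and 17.1% of all genes tested. Their median log2 fold change was -0.49, beside -0.02 for all genes. With 14 genes nothing is read from these counts. Distances ran from 6.4 kb to 1891 kb, so that some were not close neighbours. Rassf9, 21.7 kb from Nts, fell furthest, from 1372 and 1586 normalised counts in Control to 389, 151 and 133 in Prox1 OE (log2 fold change -2.89 ± 0.43, limma adjusted p = 0.0038). Fam118a, 6.4 kb from Upk3a, fell from 2003 and 1958 to 753, 689 and 617 (-1.53 ± 0.13, limma adjusted p = 0.0018). Nts and Upk3a thus each had a neighbour that was lower too, by a smaller amount. On the other side of Upk3a, 5031439G07Rik changed by -0.68 ± 0.13 (adjusted p = 0.0085).

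Thrsp, a lipogenic gene of hepatocytes 33.6 kb from Kctd14, moved the opposite way. It stood at 3067 and 7873 in Control and at 31826, 25994 and 59331 in Prox1 OE (log2 fold change 2.90 ± 0.45, limma adjusted p = 0.0044). Next to Atp6v1b1, Cd207 was called higher (1.02 ± 0.31, adjusted p = 0.038) and Tex261, 10 kb away, was at 0.14 ± 0.10 (adjusted p = 0.32). Next to Gabrp, Ranbp17 was lower by less (-0.83 ± 0.22, adjusted p = 0.026). Both flanks of Stk32b were not called, Evc2 at 21.8 kb and Msx1 at 103 kb. Evc2 was close to the threshold (-0.63 ± 0.21, limma adjusted p = 0.052), and was called lower with the total count (0.0094), a mean of at least 50, DESeq2 (0.028) or without Prox1 OE 1 (0.027). Ints4 beside Kctd14 and D130052B06Rik beside Gabrp were not called but gained a call in 2 and 1 of the 16 alternatives. Nor were those of 2900052N01Rik, Bud13 at 614 kb and Gm31816 at 315 kb, or the far flank of Nts, 4930430F08Rik at 1891 kb. Without Control 1 or without Control 2 the calls were 3 of 14. Ranbp17 and Cd207 lost theirs without Control 1 (0.16 and 0.21), Control 2 (0.14 and 0.12) or Prox1 OE 3 (0.05 and 0.07), Ranbp17 also without Prox1 OE 2 (0.065), and 5031439G07Rik without either Control (0.055 and 0.083). Cd207 was also not called with the total count (0.11), with no filter (0.068), with limma without trend (0.066) and with the replicate block (0.055).

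**Figure D4:**
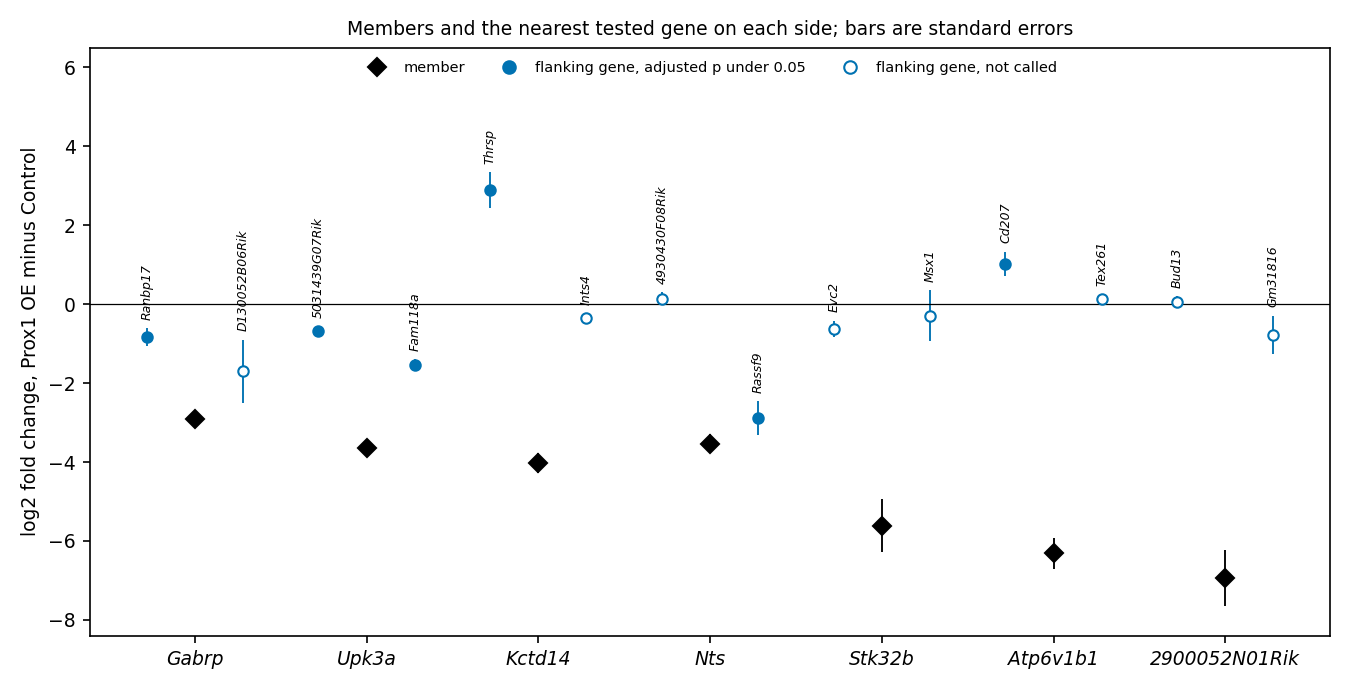
Log2 fold change of Prox1 OE over Control for each of the 7 genes (black diamonds) and the nearest tested gene on its lower-coordinate and higher-coordinate side (blue circles, filled where the limma adjusted p was under 0.05), with standard errors as bars. Rassf9 beside Nts lies at -2.89, Thrsp beside Kctd14 lies at 2.90, and 8 of the 14 flanking genes are open.

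The 7 genes formed loose profile groups. Likeness was measured as the root mean square distance over the 5 libraries between log2(normalised count + 1) values, each less its Control mean. Upk3a and Nts were closest (0.25), followed by Upk3a and Kctd14 (0.35) and Kctd14 and Nts (0.44). Gabrp was nearest to Nts (0.50). Stk32b and Atp6v1b1 were 0.87 apart, and Gabrp and 2900052N01Rik were the farthest pair (3.24).

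Outside the 7, the genes closest to their mean profile were Aire (0.29), Apln (0.43), Fcgbp (0.43), Serpinb2 (0.51) and Pglyrp4 (0.57), followed by Car4, 2210407C18Rik, Fat2, Slc6a14 and Upk1b (0.68). Aire, the autoimmune regulator, stood at 410 and 691 normalised counts in Control and at 21.5, 14.2 and 12.7 in Prox1 OE. Fcgbp, a mucin-like secreted protein, stood at 4628 and 5480 in Control and at 308, 292 and 229 in Prox1 OE. Taken one gene at a time, the nearest was Fam83e for Gabrp (0.18), Mmp7, a matrix metalloproteinase, for Nts (0.20), and Kcnh5, a potassium channel, for Upk3a (0.25). It was Fcgbp for Kctd14 (0.26), Col26a1 for both Stk32b (0.44) and Atp6v1b1 (0.67), and Dmbt1 for 2900052N01Rik (0.84). These genes were found by the same contrast and are listed as a description over 5 libraries. Serpinb2 and Upk1b had 0 reads in every Prox1 OE library, Car4 and Fat2 at most 1, and Kcnh5 had 3 in each. The distances of such genes depend on the pseudocount. Over the alternatives the log2 fold change ran from -8.28 to -2.08 for Serpinb2 and from -7.29 to -2.18 for Car4.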

How the data were processed

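Tumour RNA libraries (dUTP, paired 100 base reads) were mapped by the authors to mm10 with STAR; the counting tool is not given in the sources used here. The deposited table holds, as a signal per gene and library, counts divided by DESeq2 size factors. Whole reads were recovered for 100% of values (tolerance 0.01). A deposited table of the authors' own comparison (means, fold changes and p-values) was not used. Identifiers were matched to GENCODE M21 symbols and GRCm38 coordinates (55137 of 55397, 99.5%).

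Values were analysed with limma 3.58.1 (R 4.3.3; lmFit, eBayes with trend) on log2(normalised count + 1), for genes with a mean of at least 10, two-sided, with Benjamini-Hochberg adjustment over 17105 genes and a threshold of 0.05. This scale understates changes of low genes. The fit had no covariates, like that of the study. Nothing in the labels ties libraries to separate mice, so p-values measure the spread between these samples. Replicates were distinct (chi-square per degree of freedom at least 39.6). The procedure was tested on simulated counts of 17105 genes for Prox1 OE against Control, with 100 genes changed 2-fold and 100 changed 4-fold. It recovered 57% of the former and 82% of the latter, and 15 unchanged genes were called too. The data had many more calls (2769 lower and 2933 higher), so recovery and the share of false calls may differ there.

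The 7 genes and all lists were chosen with earlier results of these data known. Named were the 7 genes, Prox1, from each list up to 3 called genes per direction (every gene of lists of at most 5), flanking genes, the 10 genes nearest the mean profile and the nearest to each gene, Krt19, Krt7, Epcam, Sox9, Alb and Hnf4a; untested list genes named for a low level, Gabra3, Aldh5a1, Atp6v1b2, Pcsk1 and Foxi1 were added after their values were seen. The 16 alternative fits were TMM, upper-quartile and total-count scaling, pseudocounts of 0.1 and 10, no filter, a mean of at least 50, limma without trend, edgeR 4.0.16 and DESeq2 1.42.0 on recovered reads, a replicate block, and each library left out. A list gene is not reported here, though it stays in the list counts. The 7 genes were also set against the mean log2 level of Krt19, Krt7, Epcam and Sox9.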

Additional observations from a re-analysis of the deposited data

How the results depend on the processing

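The 7 genes stayed lower in Prox1 OE under all 16 alternative fits and relative to the duct markers. With the total count as scaling, 6856 genes were called lower and 1472 higher, 27 relatives lower and 6 higher, and the median log2 fold change of the 7 genes was -4.46. Relative to the mean of Krt19, Krt7, Epcam and Sox9 that median was -2.23. Upper-quartile scaling made 60.3% of calls higher, against 51.4%.

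Leaving out each library in turn gave 620 to 3765 genes lower and 891 to 3729 higher, 3 to 15 relatives lower and 5 to 16 higher, 3 to 8 flanking genes called, and a median of -4.24 to -3.82 for the 7 genes. The lowest counts were without Control 1, and without Control 2 they were 947 lower and 1552 higher. Without Prox1 OE 2, 1737 were lower. A lone Control library is assumed to vary like Prox1 OE.

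Some small changes turned direction. With the total count, Upk1a was at -0.20, 4930430F08Rik and Tex261 at -0.29 and Bud13 at -0.38. As each library was left out, Bud13 ranged from -0.00 (without Prox1 OE 2) to 0.14, and Msx1 from -0.85 to 0.29 (without Prox1 OE 3). With the replicate block, which drops Prox1 OE 3, Msx1 was at 0.29. Apart from the arithmetic of scaling and fewer samples, the cause was not tested.

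Both groups use replicate numbers 1 and 2, without any label that pairs tumours by number. Same-numbered libraries had correlations of deviations of 0.137 and 0.0156 over 2 pairs. With the replicate block, 2541 genes were lower and 2646 higher, 10 relatives lower and 10 higher, and the median of the 7 genes was -4.05. Of 1177 values of other named genes over the alternatives, 1047 kept direction and call, 82 lost the call, 11 gained it, 30 moved and 7 reversed. Depth limits Atp6v1b1, 2900052N01Rik, Upk1b and Upk3b, which had 10, 6, 0 and 4 reads over the Prox1 OE libraries. Serpinb2, Car4, Fat2 and Kcnh5, named for their profiles, were likewise at or near the floor in Prox1 OE.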
